A study of Mus musculus with 6 samples.

Results

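The genes described are 39 antioxidant genes of mouse alveolar macrophages. They are the transcription factor NRF2 (Nfe2l2) and its inhibitor KEAP1, NRF2 target enzymes, the glutathione and thioredoxin systems, and neighbouring peroxide and metal defences. They were chosen by symbol from a count table of 25664 genes, and all 39 symbols are in it. Alveolar macrophages live in the air sacs of the lung, where they clear surfactant and inhaled particles. The RNA came from macrophages sorted from lavage fluid, with 3 libraries labelled Vav1cre/+ Pex5fl/fl (called Vav-Cre) and 3 labelled Pex5fl/fl (called WT). Both groups therefore carry the floxed Pex5 alleles, and only the Vav-Cre group carries the recombinase. Vav1-Cre acts in blood-forming cells and their progeny, so the deletion is not limited to alveolar macrophages. PEX5 brings most matrix enzymes, catalase among them, into peroxisomes, and the study asked what these organelles do for the metabolism and survival of the cells. Age, sex and the number of mice behind each library are not given in the labels.

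KEAP1 binds NRF2 and marks it for degradation. Oxidants and electrophiles modify KEAP1, NRF2 then gathers in the nucleus, and with a small MAF partner it binds antioxidant response elements (AREs) in DNA. Its targets make and recycle glutathione, keep thioredoxin and peroxiredoxins reduced, and supply the NADPH that both systems use. Transcript levels of the targets are a common readout of the pathway, since NRF2 itself is regulated mainly through the stability of its protein.

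In total counts the Vav-Cre libraries held 13325609 to 19413838 reads and the WT libraries 14226108 to 18987200. In a principal component analysis the genotypes lay apart on the first component (47.6% of the variance). Vav-Cre replicate 2 stood apart: 30.4% of its counts fell on the 50 most abundant genes, a share of 38.3% to 42.1% in the other 5 libraries. Its scaling factor by trimmed mean of M values (TMM) was 1.34, against 0.90 to 1.03. Pex5 itself measured 31.4, 36.3 and 29.6 CPM in Vav-Cre replicates 1 to 3, against 33.0, 32.1 and 29.7 CPM in WT replicates 1 to 3. The log2 fold change of Pex5, Vav-Cre over WT, was 0.04 with a standard error of 0.11 (edgeR adjusted p = 0.891). Counts per gene do not separate the deleted exons from the rest, so this level is no check of the genotype labels. The cause of the like levels was not tested. All 12 alveolar macrophage markers were detected, with summed unscaled levels of 43526 to 68743 CPM in Vav-Cre and 51807 to 71502 CPM in WT libraries. Of these 12, Siglecf, Ear1 and Krt79 fell and Fabp4 rose in Vav-Cre macrophages. The 9 neutrophil markers summed to 133 to 180 CPM in Vav-Cre and 77.6 to 102 CPM in WT libraries, with 2 of the 4 tested called higher, S100a8 and Cxcr2. The defining neutrophil genes S100a9, Ly6g, Retnlg, Camp and Ngp were at 0 in all 6 libraries. The 6 eosinophil markers summed to 14.2 to 25.5 CPM in Vav-Cre and 27.6 to 47.3 CPM in WT libraries. Of these 6, 5 were at 0 throughout, and Siglece, the only one detected, was called lower. The 4 endothelial markers summed to 33.6 to 57.9 CPM in Vav-Cre and 20.3 to 24.5 CPM in WT libraries, of which Vwf, the only one tested, was called higher. The 8 T or NK cell markers summed to 311 to 342 CPM in Vav-Cre and 282 to 417 CPM in WT libraries. Cd3d, Cd3g, Nkg7 and Ncr1 were at 0 throughout, and of the 2 tested 0 were called. The 6 markers of type II epithelium summed to 34.6 to 58.4 CPM in Vav-Cre and 45.9 to 56.2 CPM in WT libraries, with 0 of 2 tested called. The part of other cells in the results below was not tested. In bulk RNA, fewer cells of a type and less RNA per cell cannot be told apart.

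None of the antioxidant genes passed the test across all genes. The Vav-Cre libraries did not carry one common antioxidant pattern. With TMM scaling Vav-Cre replicate 1 had the highest level of 20 of the 36 tested genes, among them Gclm, Txnrd1, Srxn1, Nqo1, Blvrb and Prdx1. Vav-Cre replicate 2 then had the lowest level of 18, among them Prdx1, Txn1, Gpx1, Mt1 and Mt2. By library totals alone Vav-Cre replicate 1 was still the highest for 17. Vav-Cre replicate 2 was then the lowest for only 3 (Txn1, Prdx1 and Gpx1) and the highest for 13. With TMM scaling, Gpx3, Osgin1, Gch1 and Prdx4 lay above and Glrx, G6pdx, Taldo1 and Tkt below every WT library in all 3 Vav-Cre libraries. By library totals alone this held for Gpx3, Osgin1, Gch1 and Taldo1, while Prdx4, Glrx, G6pdx and Tkt overlapped between the groups.

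Levels below are CPM on TMM-scaled library sizes unless called unscaled. Fold changes are log2 of Vav-Cre over WT with their standard error (SE, n = 3 per group). Adjusted p-values come from the two-sided quasi-likelihood test of edgeR, with Benjamini-Hochberg adjustment over 11011 genes and a threshold of 0.05. Of the 39 genes 36 passed the filter on low counts and 0 were called, against 3.25% of all genes tested (1.74% higher and 1.51% lower). An unadjusted p under 0.05 was reached by 7 of 36 (19.4%), against 18.9% of all genes. These were Gpx3, Gch1, Osgin1, Gstm1 and Gpx4 on the higher side, where 9.7% of all genes lay, and Glrx and G6pdx on the lower side, with 9.17% of all genes. DESeq2 called 4 higher (Gpx3, Gch1, Gstm1 and Osgin1) and 1 lower (Glrx), where it called 3.57% of all genes higher and 3.29% lower. The groups did not overlap for 8 of 36 (22.2%), 4 on each side, against 26.1% of all genes (13% higher and 13.1% lower), so this share was not above the background. By library totals alone the groups did not overlap for 7 of 36 (19.4%), 6 higher and 1 lower, against 17.3% of all genes (14.3% higher and 2.99% lower). The 7 were Gpx3, Osgin1, Gch1, Gstm1, Gpx4 and Nfe2l2 on the higher side and Taldo1 on the lower side. The log2 fold change was positive for 24 of 36 (66.7%), against 49.9% of all genes, with a median of 0.11 over the 36. The 95% interval included 0 for 29 of the 36.

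**Figure D1:**
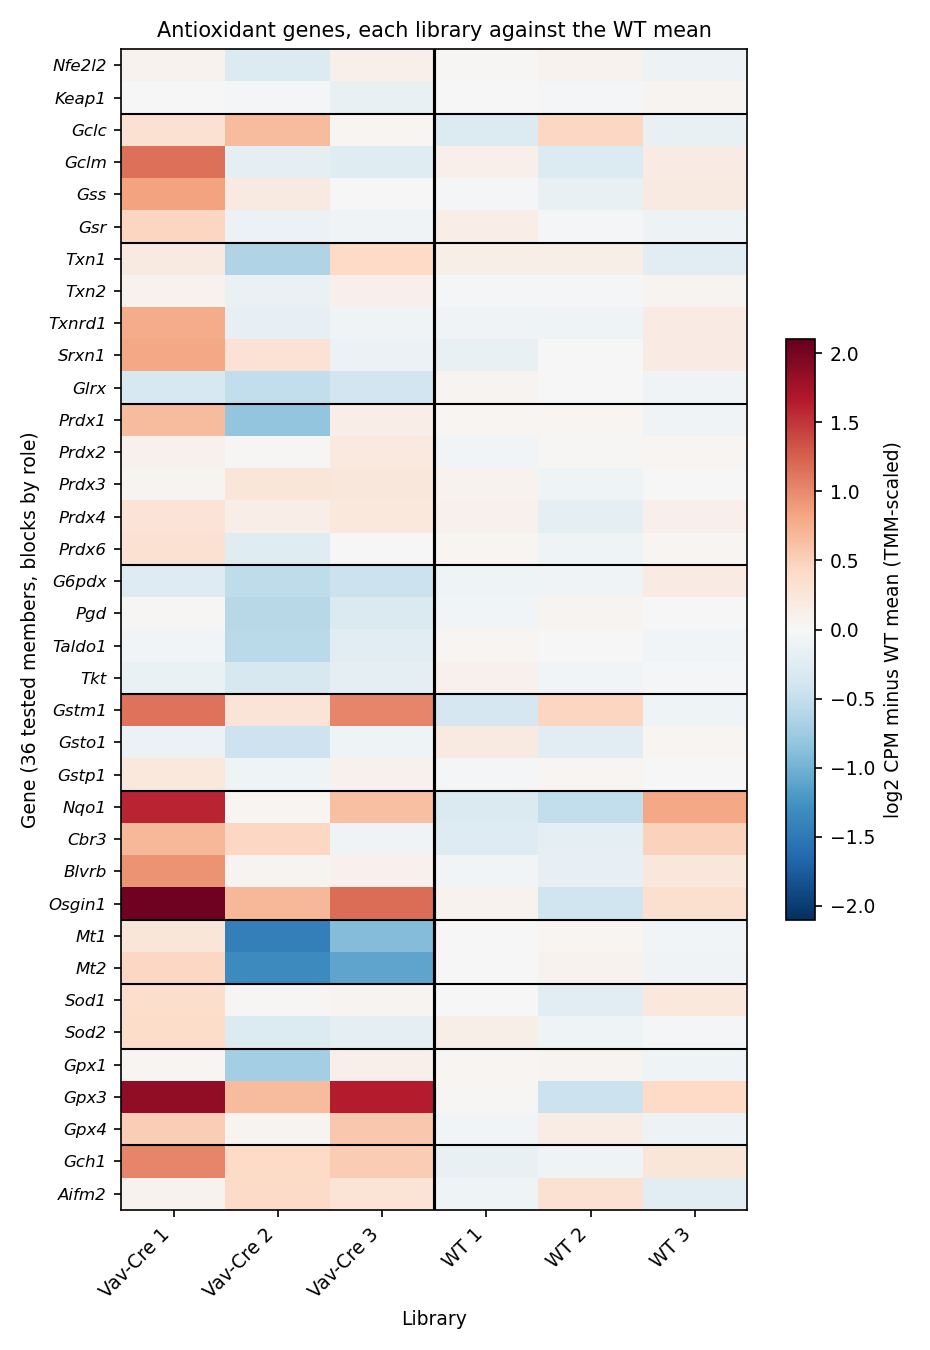
Each row is 1 of the 36 tested antioxidant genes and each column 1 library, Vav-Cre replicates 1 to 3 at the left and WT replicates 1 to 3 at the right. Colour gives log2 CPM minus the mean of the 3 WT libraries, and the column of Vav-Cre replicate 1 lies above 0 for 30 of the 36 genes while that of Vav-Cre replicate 2 does so for 16.

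Since NRF2 acts by binding DNA, promoters were read from RefSeq (GRCm38.p6) as the 250 bases before each annotated start. Promoter windows were found for 35 of the 39 genes, 45 windows in all. The ARE core TGACNNNGC was searched on both strands, and so were the narrower forms TGACTCAGC and TGAGTCAGC, the first of which also matches the core. The core was in 8 of the 45 windows (17.8%), against 10.2% of 32851 windows of all genes. The narrower forms were in 5 (11.1%), against 0.706% of all windows, in Srxn1, Prdx1, Osgin1, Gstp1 and Mt2. Genes of this kind are known as NRF2 targets and were chosen for it, so these shares describe the choice of genes. The promoters of 5 genes are shown 5′ to 3′ with the ARE match in capitals. They were picked from the genes that hold a match and were highest in Vav-Cre replicate 1 with TMM scaling. Sod1, Gstp1 and Mt2 met this as well and were not picked here. Since the choice used the levels in that library, the 5 promoters cannot bear on a link between match and level. The match starts 134 bases before the start of Gclm, 92 before that of Txnrd1 (the second of its 3 windows), 45 for Srxn1, 133 for Prdx1 and 99 for Osgin1. Their positions on the plus strand are chr3:122245307-122245556 for Gclm, chr10:82858956-82859205 for Txnrd1, chr2:152105274-152105523 for Srxn1, chr4:116685349-116685598 for Prdx1 and chr8:119436897-119437146 for Osgin1.
Gclm: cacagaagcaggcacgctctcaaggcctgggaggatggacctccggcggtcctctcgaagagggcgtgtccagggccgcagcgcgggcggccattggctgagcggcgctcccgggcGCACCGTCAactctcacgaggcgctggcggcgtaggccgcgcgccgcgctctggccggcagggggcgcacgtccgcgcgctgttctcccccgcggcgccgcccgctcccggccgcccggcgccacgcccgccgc
Txnrd1: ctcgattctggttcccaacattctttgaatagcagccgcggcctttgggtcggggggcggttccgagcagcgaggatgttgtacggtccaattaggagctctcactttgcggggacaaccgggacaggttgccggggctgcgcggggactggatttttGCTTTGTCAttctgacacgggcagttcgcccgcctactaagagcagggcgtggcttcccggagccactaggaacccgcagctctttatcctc
Srxn1: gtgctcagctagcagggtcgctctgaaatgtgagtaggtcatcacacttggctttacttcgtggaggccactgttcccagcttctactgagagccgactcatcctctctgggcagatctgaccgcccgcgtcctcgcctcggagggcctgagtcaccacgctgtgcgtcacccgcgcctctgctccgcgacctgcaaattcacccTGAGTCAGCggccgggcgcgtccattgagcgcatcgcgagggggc
Prdx1: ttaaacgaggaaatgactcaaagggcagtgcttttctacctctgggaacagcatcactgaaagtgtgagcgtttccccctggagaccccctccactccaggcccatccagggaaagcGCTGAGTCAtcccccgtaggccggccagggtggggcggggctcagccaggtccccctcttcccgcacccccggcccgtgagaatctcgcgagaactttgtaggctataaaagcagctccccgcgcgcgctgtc
Osgin1: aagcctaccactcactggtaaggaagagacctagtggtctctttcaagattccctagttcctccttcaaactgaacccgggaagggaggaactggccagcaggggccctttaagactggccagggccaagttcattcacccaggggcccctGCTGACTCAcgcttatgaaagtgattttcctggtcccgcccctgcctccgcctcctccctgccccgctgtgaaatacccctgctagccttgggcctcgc

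The windows of Nqo1, Blvrb, Gss, Gstm1, Gpx3, Gch1, Cbr3, Sod2, Prdx4 and Mt1 hold neither form. With TMM scaling these genes were also highest in Vav-Cre replicate 1. Sod1, Gstp1 and Mt2 hold a form and were highest there too, while Nfe2l2 and G6pdx hold a form and were not. A link between a match and the level in that library was not tested. A match is a run of letters and was not measured as a binding site, and elements farther from the start were not searched.

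The regulators themselves differed little. Nfe2l2, on chromosome 2 from 75675513 to 75704641 (GRCm38), measured 186, 147 and 192 CPM in Vav-Cre replicates 1 to 3, against 182, 187 and 166 CPM in WT replicates 1 to 3. The 6 values overlap, with Vav-Cre replicate 2 lowest. This is a log2 fold change of -0.02 ± 0.13 (edgeR adjusted p = 0.947), with a 95% interval from -0.33 to 0.28. Keap1, on chromosome 9 from 21229730 to 21239361, measured 53.5, 52.8 and 48.3 CPM in Vav-Cre against 53.5, 52.0 and 55.8 CPM in WT libraries. These values overlap too, and the log2 fold change was -0.06 ± 0.09 (edgeR adjusted p = 0.774). When libraries were scaled by their totals alone the signs turned, to 0.12 for Nfe2l2 and 0.11 for Keap1, where the median of all genes was 0.17.

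Glutathione is made by glutamate-cysteine ligase, of a catalytic (Gclc) and a modifier (Gclm) subunit, and by glutathione synthetase (Gss), and glutathione reductase (Gsr) returns its oxidised form. Gclm, on chromosome 3 from 122245557 to 122270732, measured 92.7, 36.6 and 34.8 CPM in Vav-Cre replicates 1 to 3, against 45, 34.2 and 46.9 CPM in WT replicates 1 to 3. Vav-Cre replicate 1 stood above every other library, while Vav-Cre replicates 2 and 3 lay within the WT range. Gclm had a log2 fold change of 0.37 ± 0.35 (edgeR adjusted p = 0.613), and without Vav-Cre replicate 1 it was -0.23. Gclc measured 5.55, 7.10 and 4.58 CPM in Vav-Cre against 3.60, 6.07 and 3.98 CPM in WT libraries, and the groups overlap. Its log2 fold change was 0.33 ± 0.27 (edgeR adjusted p = 0.547). Vav-Cre replicate 1 was not the highest for this catalytic subunit, unlike for the modifier subunit.

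Gsr measured 294, 198 and 205 CPM in Vav-Cre against 238, 211 and 201 CPM in WT libraries. Vav-Cre replicate 1 was again highest and the other 5 libraries overlap. Gsr had a log2 fold change of 0.10 ± 0.17 (edgeR adjusted p = 0.801) and it was -0.11 without Vav-Cre replicate 1. Gss measured 30.5, 19.3 and 17.0 CPM in Vav-Cre against 16.4, 15.1 and 19.3 CPM in WT libraries (edgeR adjusted p = 0.381). The median log2 fold change over the 4 genes of glutathione synthesis and recycling was 0.35 with all libraries, -0.004 without Vav-Cre replicate 1 and 0.35 without Vav-Cre replicate 2.

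Thioredoxin (Txn1) passes electrons from NADPH, through thioredoxin reductase 1 (Txnrd1), to peroxiredoxins and other proteins, and sulfiredoxin (Srxn1) repairs overoxidised peroxiredoxins. Txnrd1, on chromosome 10 from 82833951 to 82897712, measured 191, 98.7 and 106 CPM in Vav-Cre replicates 1 to 3, against 106, 105 and 126 CPM in WT replicates 1 to 3. Only Vav-Cre replicate 1 lay outside the WT range on the high side. Txnrd1 had a log2 fold change of 0.23 ± 0.24 (edgeR adjusted p = 0.647) and -0.13 without that library. Srxn1 measured 21.4, 15 and 11 CPM in Vav-Cre against 10.8, 12 and 13.6 CPM in WT libraries. Vav-Cre replicates 1 and 2 lay above the WT values and Vav-Cre replicate 3 among them, with a log2 fold change of 0.37 ± 0.23 (edgeR adjusted p = 0.426).

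Txn1 itself did not share this pattern. It measured 1099, 621 and 1286 CPM in Vav-Cre against 1047, 1050 and 820 CPM in WT libraries, with Vav-Cre replicate 3 highest and Vav-Cre replicate 2 lowest. Txn1 had a log2 fold change of 0.04 ± 0.27 (edgeR adjusted p = 0.954), and it ranged from -0.18 to 0.31 when single libraries were left out. Mitochondrial thioredoxin (Txn2) stayed between 161 and 191 CPM in Vav-Cre and between 175 and 185 CPM in WT libraries.

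Glutaredoxin (Glrx), which removes glutathione from protein thiols, had the smallest adjusted p of the 36. On chromosome 13 from 75839868 to 75850154, it measured 52.2, 46.2 and 49.8 CPM in Vav-Cre replicates 1 to 3, against 68.7, 66.7 and 62.6 CPM in WT replicates 1 to 3. With this scaling every Vav-Cre library lay below every WT library. Unscaled, Glrx had 50.1, 61.7 and 45.4 CPM in Vav-Cre against 61.7, 61.3 and 64.6 CPM in WT libraries, and Vav-Cre replicate 2 lay among the WT values. With TMM, Glrx had a log2 fold change of -0.42 ± 0.10, with a 95% interval from -0.64 to -0.20 (edgeR adjusted p = 0.0572), and it ranged from -0.46 to -0.36 when single libraries were left out. Scaled by library totals alone, Glrx had a log2 fold change of -0.25 (edgeR adjusted p = 0.707).

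Peroxiredoxins reduce hydrogen peroxide with electrons from thioredoxin. Prdx1, a cytosolic peroxiredoxin on chromosome 4 from 116685544 to 116700822, measured 3906, 1390 and 2702 CPM in Vav-Cre replicates 1 to 3, against 2537, 2517 and 2321 CPM in WT replicates 1 to 3. The 3 WT values lie close together, Vav-Cre replicate 1 is far above them and Vav-Cre replicate 2 far below. Prdx1 had a log2 fold change of 0.12 ± 0.34 (edgeR adjusted p = 0.893). It was -0.26 without Vav-Cre replicate 1 and 0.44 without Vav-Cre replicate 2, so the sign was set by which of these libraries was kept. Without TMM scaling Prdx1 had 3748, 1857 and 2463 CPM in Vav-Cre against 2280, 2315 and 2396 CPM in WT libraries, in the same order among the Vav-Cre libraries.

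Prdx4, the peroxiredoxin of the endoplasmic reticulum, measured 40.6, 36.7 and 38.8 CPM in Vav-Cre against 35.5, 29.0 and 35.9 CPM in WT libraries. With TMM the groups did not overlap, by a narrow gap, and the log2 fold change was 0.21 ± 0.11 (edgeR adjusted p = 0.357). Unscaled, Prdx4 had 38.9, 49.1 and 35.3 CPM in Vav-Cre against 31.9, 26.6 and 37.1 CPM in WT libraries, and Vav-Cre replicate 3 lay below WT replicate 3. Its log2 fold change by library totals alone was 0.37 (edgeR adjusted p = 0.558). Prdx2, Prdx3 and Prdx6 overlapped between the groups, with log2 fold changes from 0.03 to 0.19. Red blood cells are rich in Prdx2, and erythrocyte markers summed to 6.79 unscaled CPM in Vav-Cre replicate 2 and to at most 0.155 CPM in every other library. Prdx2 measured 199, 190 and 216 CPM in Vav-Cre against 181, 190 and 192 CPM in WT libraries, with Vav-Cre replicate 2 the lowest of the Vav-Cre libraries. Unscaled, Prdx2 had 191, 254 and 196 CPM in Vav-Cre against 162, 174 and 198 CPM in WT libraries, with Vav-Cre replicate 2 the highest of all 6. The part of red cell RNA in these levels was not tested. Prdx2 shares 12.8% of the 100-base words of its longest transcript with other annotated genes, chiefly Junb, and is uncertain to that extent.

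NADPH for both systems comes largely from the pentose phosphate pathway. Its first enzyme, glucose-6-phosphate dehydrogenase (G6pdx, on chromosome X from 74409483 to 74429194), measured 197, 165 and 173 CPM in Vav-Cre replicates 1 to 3, against 223, 225 and 266 CPM in WT replicates 1 to 3. With this scaling every Vav-Cre library lay below every WT library, while unscaled levels of 189, 220 and 158 CPM in Vav-Cre and 201, 207 and 275 CPM in WT libraries overlapped. With TMM, G6pdx had a log2 fold change of -0.42 ± 0.13 (edgeR adjusted p = 0.123), with a range from -0.49 to -0.31 when single libraries were left out, and by library totals alone one of -0.27 (edgeR adjusted p = 0.603).

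Transaldolase (Taldo1) and transketolase (Tkt), of the non-oxidative branch, lay on the same side. Taldo1 measured 1159, 810 and 1022 CPM in Vav-Cre against 1245, 1210 and 1162 CPM in WT libraries, a log2 fold change of -0.27 ± 0.18 (edgeR adjusted p = 0.459). Tkt measured 618, 541 and 590 CPM in Vav-Cre against 727, 653 and 662 CPM in WT libraries, a log2 fold change of -0.22 ± 0.14 (edgeR adjusted p = 0.431). With TMM neither gene overlapped between the groups, although for Taldo1 the gap between Vav-Cre replicate 1 and WT replicate 3 was small. Unscaled, Tkt had 593, 723 and 538 CPM in Vav-Cre against 653, 601 and 684 CPM in WT libraries, with Vav-Cre replicate 2 the highest of all 6. The log2 fold change by library totals alone was -0.06 for Tkt and -0.13 for Taldo1. Pgd, the second dehydrogenase of the pathway, measured 558, 370 and 445 CPM in Vav-Cre against 531, 572 and 550 CPM in WT libraries and did overlap. The median log2 fold change over these 4 genes was -0.27, and it was -0.42 without Vav-Cre replicate 1, the library that was highest for Gclm, Txnrd1 and Nqo1. Malic enzyme (Me1), another source of NADPH, was below the filter with 28, 7 and 9 counts in Vav-Cre against 4, 2 and 15 counts in WT libraries.

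Among glutathione transferases, which couple glutathione to electrophiles, Gstm1 differed by the largest amount. It measured 1185, 644 and 1083 CPM in Vav-Cre replicates 1 to 3, against 416, 729 and 504 CPM in WT replicates 1 to 3. Vav-Cre replicates 1 and 3 lay above every WT library, while Vav-Cre replicate 2 lay below WT replicate 2. Gstm1 had a log2 fold change of 0.82 ± 0.28 (edgeR adjusted p = 0.159), and without Vav-Cre replicate 2 it was 1.06 (edgeR adjusted p = 0.0431). By library totals alone Gstm1 was at 0.93 (edgeR adjusted p = 8.05e-05), where the median of all genes was 0.17. Gstm1 shares 7.73% of the 100-base words of its longest transcript with other annotated genes, so its counts carry some uncertainty.

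Gsto1 and Gstp1 overlapped between the groups, with log2 fold changes of -0.22 and 0.08. Gstp1 shares 52.8% of its words with other genes, chiefly Gstp2, and its value is uncertain. Gsta3 had 7, 3 and 2 counts in Vav-Cre against 0, 0 and 2 in WT libraries, and Gsta4 had 3, 2 and 1 against 0, 0 and 1. Both were too low to test.

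NQO1 reduces quinones and is a standard NRF2 readout, BLVRB reduces biliverdin and flavins, CBR3 reduces carbonyls, and OSGIN1 is an oxidative stress-induced growth inhibitor. Nqo1, on chromosome 8 from 107388225 to 107403206, measured 8.60, 2.82 and 4.3 CPM in Vav-Cre replicates 1 to 3, against 2.19, 1.89 and 4.93 CPM in WT replicates 1 to 3. Vav-Cre replicate 1 was highest, and WT replicate 3 was above Vav-Cre replicates 2 and 3. Nqo1 had a log2 fold change of 0.77 ± 0.48 (edgeR adjusted p = 0.430), with a 95% interval from -0.33 to 1.87. It was 0.24 without Vav-Cre replicate 1 and 1.35 without WT replicate 3, the widest range of the 36 after leaving out single libraries. Blvrb measured 206, 111 and 114 CPM in Vav-Cre against 102, 94.7 and 125 CPM in WT libraries, and its log2 fold change of 0.42 ± 0.24 (edgeR adjusted p = 0.383) was 0.07 without Vav-Cre replicate 1.

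Osgin1 kept its side in every library. On chromosome 8 from 119434124 to 119446256, it measured 3.99, 1.51 and 2.15 CPM in Vav-Cre replicates 1 to 3, against 0.939, 0.630 and 1.15 CPM in WT replicates 1 to 3. The 2 groups did not overlap, and Vav-Cre replicate 1 was again highest. Osgin1 had a log2 fold change of 1.46 ± 0.44 (edgeR adjusted p = 0.116), and it ranged from 1.01 without Vav-Cre replicate 1 to 1.76 without Vav-Cre replicate 2. By library totals alone Osgin1 was at 1.58 (edgeR adjusted p = 0.0366), where the median of all genes was 0.17. Cbr3 had a log2 fold change of 0.35 and overlapped between the groups.

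**Figure D2:**
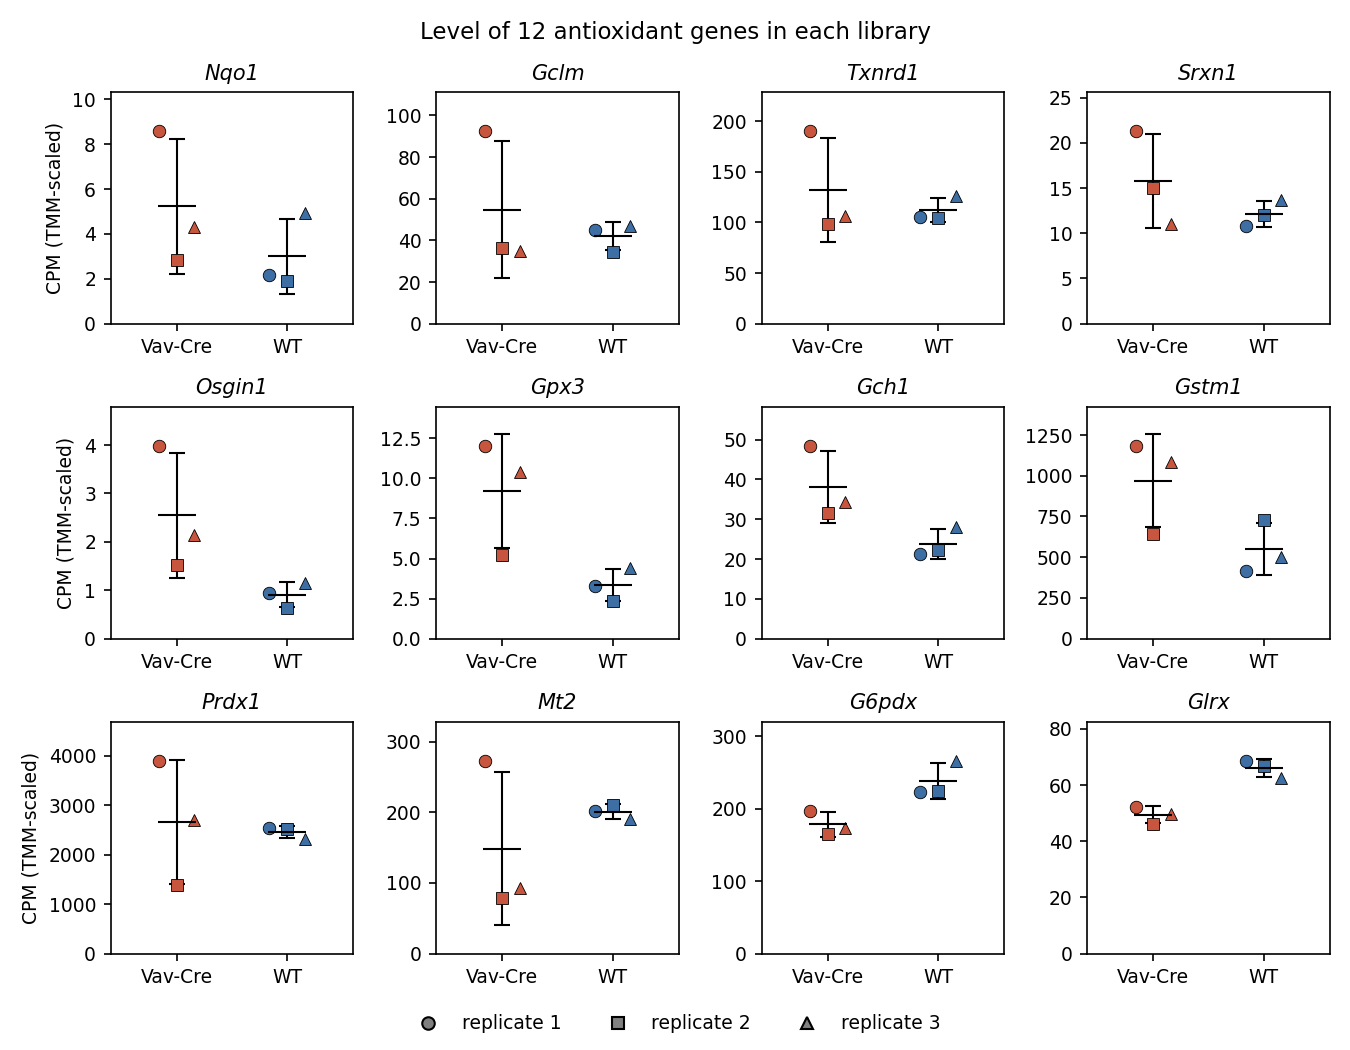
Each panel shows 1 gene, with TMM-scaled CPM on a linear axis from 0, the 3 Vav-Cre libraries at the left and the 3 WT libraries at the right. Points are libraries, horizontal lines are group means and bars are 1 SD (n = 3), and Nqo1, Gclm and Txnrd1 show Vav-Cre replicate 1 alone at the top, while Osgin1, Gpx3 and Gch1 show all Vav-Cre libraries above all WT libraries.

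Metallothioneins bind zinc and copper and scavenge radicals, and are induced by metals through metal response elements (MREs) as well as by stress. Their promoters are shown because Mt1 and Mt2 moved together between libraries, with the MRE core TGCACNC or TGCGCNC, searched on both strands, in capitals. Mt2 (chr8:94172368-94172617, plus strand) holds 3 matches, starting 223, 128 and 50 bases before its start, and also 1 narrow ARE form that is not capitalised. Mt1 (chr8:94178839-94179088, plus strand) holds 1 match, 23 bases before its annotated start, and 21.4% of all promoter windows hold at least 1. Bases after the annotated start were not searched, so these are not counts of all MREs of the 2 genes.
Mt2: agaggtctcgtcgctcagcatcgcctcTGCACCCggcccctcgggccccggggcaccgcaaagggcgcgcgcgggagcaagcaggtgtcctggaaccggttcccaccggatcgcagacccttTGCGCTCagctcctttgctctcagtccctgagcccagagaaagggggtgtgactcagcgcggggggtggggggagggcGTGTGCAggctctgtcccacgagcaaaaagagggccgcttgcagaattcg
Mt1: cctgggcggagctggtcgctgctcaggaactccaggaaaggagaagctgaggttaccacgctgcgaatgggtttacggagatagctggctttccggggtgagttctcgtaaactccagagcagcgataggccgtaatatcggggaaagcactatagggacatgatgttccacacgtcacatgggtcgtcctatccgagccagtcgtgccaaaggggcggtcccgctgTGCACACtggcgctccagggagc

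Mt1 measured 2004, 616 and 891 CPM in Vav-Cre replicates 1 to 3, against 1691, 1728 and 1603 CPM in WT replicates 1 to 3. Mt2 measured 273, 79.2 and 93.3 CPM in Vav-Cre against 201, 211 and 191 CPM in WT libraries. For both genes Vav-Cre replicate 1 was the highest of the 6 libraries, and Vav-Cre replicates 2 and 3 were the lowest, with the WT libraries close together between them. Mt1 had a log2 fold change of -0.52 ± 0.38 (edgeR adjusted p = 0.511) and Mt2 one of -0.44 ± 0.41 (edgeR adjusted p = 0.606). Without Vav-Cre replicate 1 it was -1.15 for Mt1 (edgeR adjusted p = 0.0893) and -1.22 for Mt2 (edgeR adjusted p = 0.0123), so the call of Mt2 depended on that library. Mt2 shares 27.4% of its words with 1 other annotated gene, and its counts are uncertain to that extent.

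Superoxide dismutases turn superoxide into hydrogen peroxide. Sod1, the cytosolic form, had a log2 fold change of 0.15 and Sod2, the mitochondrial form, one of -0.01, and both overlapped between the groups. Glutathione peroxidases then reduce peroxides, with Gpx1 in the cytosol, Gpx3 as a secreted form and Gpx4 acting on lipid peroxides in membranes. Gpx1 measured 2055, 1220 and 2140 CPM in Vav-Cre against 2047, 2072 and 1881 CPM in WT libraries. Only Vav-Cre replicate 2 lay apart, on the low side, and the log2 fold change of -0.15 was 0.08 without that library.

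Gpx3 had one of the largest fitted differences of the 36. On chromosome 11 from 54902453 to 54910377, it measured 12, 5.21 and 10.4 CPM in Vav-Cre replicates 1 to 3, against 3.29, 2.35 and 4.39 CPM in WT replicates 1 to 3. Every Vav-Cre library lay above every WT library, Vav-Cre replicate 2 by the least. Gpx3 had a log2 fold change of 1.46 ± 0.35, with a 95% interval from 0.65 to 2.26 (edgeR adjusted p = 0.0665), and without Vav-Cre replicate 2 it was 1.76 (edgeR adjusted p = 0.0147). By library totals alone Gpx3 was at 1.54 (edgeR adjusted p = 0.00345), where the median of all genes was 0.17.

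Gpx4 measured 515, 374 and 537 CPM in Vav-Cre against 347, 404 and 336 CPM in WT libraries. Vav-Cre replicate 2 lay below WT replicate 2, so the groups overlap. Gpx4 had a log2 fold change of 0.39 ± 0.17 (edgeR adjusted p = 0.264), and without Vav-Cre replicate 2 it was 0.55 (edgeR adjusted p = 0.0455). Gpx4 shares 48.4% of its words with other genes, chiefly a pseudogene copy, so its value is uncertain.

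GCH1 makes the first intermediate of tetrahydrobiopterin and AIFM2 (FSP1) reduces ubiquinone, and both oppose lipid peroxidation beside GPX4. Gch1, on chromosome 14 from 47153895 to 47189413, measured 48.5, 31.6 and 34.2 CPM in Vav-Cre replicates 1 to 3, against 21.3, 22.2 and 28.2 CPM in WT replicates 1 to 3. The 2 groups did not overlap. Gch1 had a log2 fold change of 0.67 ± 0.18 (edgeR adjusted p = 0.0914), and it ranged from 0.46 without Vav-Cre replicate 1 to 0.82. By library totals alone Gch1 was at 0.81 (edgeR adjusted p = 0.0509) and did not pass. Aifm2 overlapped between the groups, with a log2 fold change of 0.24, and was 1 of 3 genes highest in Vav-Cre replicate 2.

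The contribution of single libraries was then set out for the 36 genes together. With TMM scaling the median of log2 CPM minus the WT mean was 0.32 in Vav-Cre replicate 1, -0.11 in Vav-Cre replicate 2 and 0.05 in Vav-Cre replicate 3. Each WT library, set against the other 2, had a median of 0.01, -0.06 and 0.04 for replicates 1 to 3. In Vav-Cre replicate 1, 13 genes lay more than 0.5 above the WT mean and 0 more than 0.5 below. In Vav-Cre replicate 2, 9 genes lay more than 0.5 below and 3 more than 0.5 above. By library totals alone the median in Vav-Cre replicate 2 was 0.39, beside 0.50 for all genes, with 2 genes more than 0.5 below and 16 more than 0.5 above. In Vav-Cre replicate 1 it was then 0.33, beside 0.00 for all genes, and in Vav-Cre replicate 3 -0.01. The SD of log2 CPM among the 3 Vav-Cre libraries exceeded that among the 3 WT libraries for 29 of the 36 genes (80.6%), against 59.2% of all genes. The median SD over the 36 was 0.31 in Vav-Cre and 0.14 in WT, against 0.20 and 0.16 over all genes.

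**Figure D3:**
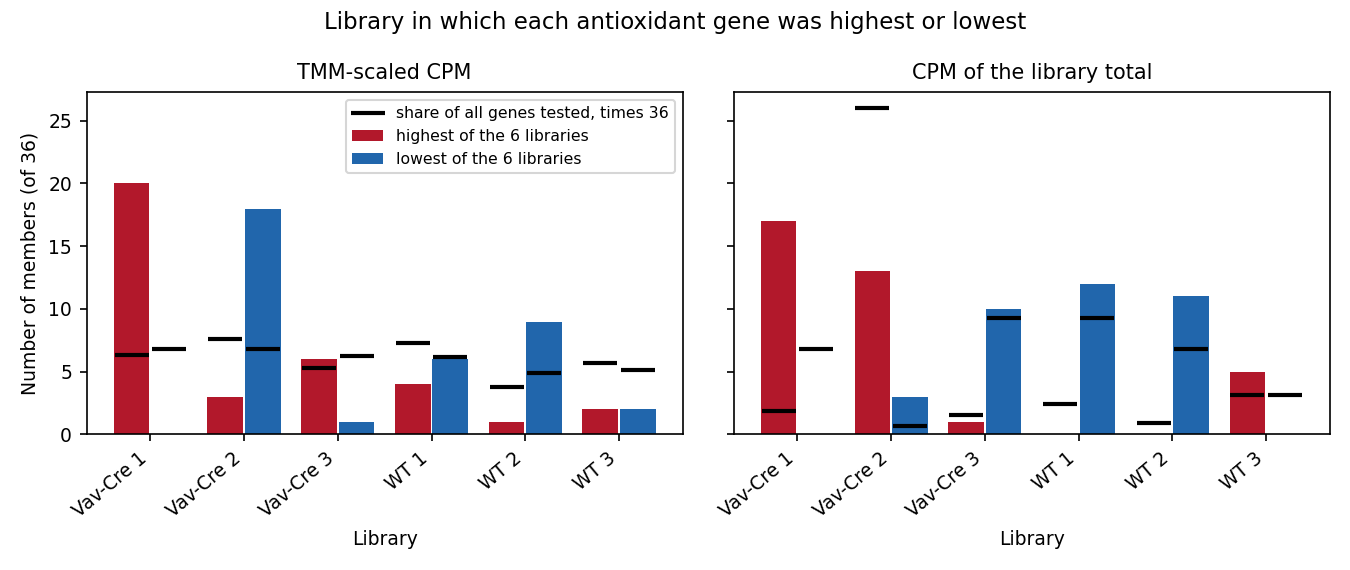
Bars give how many of the 36 tested antioxidant genes had their highest or lowest level in each library. The left panel uses TMM-scaled CPM, the right panel CPM of the library total, and black marks give the share of all genes tested, times 36. With TMM, Vav-Cre replicate 1 is highest for 20 and lowest for 0, and Vav-Cre replicate 2 is highest for 3 and lowest for 18. By library totals these are 17 and 0 for Vav-Cre replicate 1 and 13 and 3 for Vav-Cre replicate 2.

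For comparison, 17.5% of all genes were highest and 18.9% lowest in Vav-Cre replicate 1, and 21.2% were highest and 18.9% lowest in Vav-Cre replicate 2. The extremes of Vav-Cre replicate 2 moved with the scaling. By library totals alone it was the highest for 13 of the 36 and the lowest for 3, Txn1, Prdx1 and Gpx1, in a scaling where it was the highest for 72.2% of all genes and the lowest for 1.93%. Those of Vav-Cre replicate 1 stayed, with 17 highest and 0 lowest by library totals alone, where it was the highest for 5.28% of all genes. 8 of the 36 averaged at least 500 CPM (Txn1, Prdx1, Pgd, Taldo1, Tkt, Gstm1, Mt1 and Gpx1). In Vav-Cre replicate 2, 7 of these 8 lay below the WT mean with TMM scaling and 6 of 8 by library totals alone, with median differences of -0.61 and -0.11 on the log2 scale. With TMM the count was 2 and 4 in Vav-Cre replicates 1 and 3 and 2, 1 and 8 in WT replicates 1 to 3. The medians of these libraries lay between -0.07 and 0.11. By library totals alone the counts were 2 and 4 in Vav-Cre and 6, 3 and 2 in WT, with medians from -0.11 to 0.13. Vav-Cre replicate 2 thus stood apart by its TMM median only. The part of its low share of abundant transcripts in that median was not tested.

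Leaving out each library in turn showed the same split. The shift was largest without Vav-Cre replicate 1 for 15 of the 36 genes, without Vav-Cre replicate 2 for 12, without WT replicate 3 for 5 and without WT replicate 2 for 4. Without Vav-Cre replicate 1 the median log2 fold change of the 36 was -0.02, with 17 positive and 19 negative, and without Vav-Cre replicate 2 it was 0.17, over 37 genes tested, 28 positive and 9 negative. The fold change moved by over 0.3 for 8 genes without Vav-Cre replicate 1 (Gclm, Txnrd1, Prdx1, Nqo1, Blvrb, Osgin1, Mt1 and Mt2). It moved by as much for 5 without Vav-Cre replicate 2 (Prdx1, Nqo1, Mt1, Mt2 and Gpx3) and for 2 without WT replicate 3 (Nqo1 and Cbr3). Of all genes 2.35%, 6.39% and 2.98% moved by over 0.3 without these 3 libraries. The sign turned for 7 genes without Vav-Cre replicate 1, which were Gclm, Gsr, Txn1, Txn2, Txnrd1, Prdx1 and Prdx6. The sign of 3 genes, Nfe2l2, Sod2 and Gpx1, turned without Vav-Cre replicate 2. It turned as well for 3 without Vav-Cre replicate 3, 2 without WT replicate 1, 3 without WT replicate 2 and 1 without WT replicate 3. Of all genes 9.98% turned sign without Vav-Cre replicate 1, 13.1% without Vav-Cre replicate 2 and 10.3% without Vav-Cre replicate 3. Without WT replicates 1 to 3 the shares were 10.8%, 7.96% and 9.45%. In all, 10 of the 36 turned sign without some library, while 17 stayed positive and 9 negative in the full fit and in every fit with 1 library left out. The matching share of all genes was not worked out, so these counts are not read as particular to the 36.

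**Figure D4:**
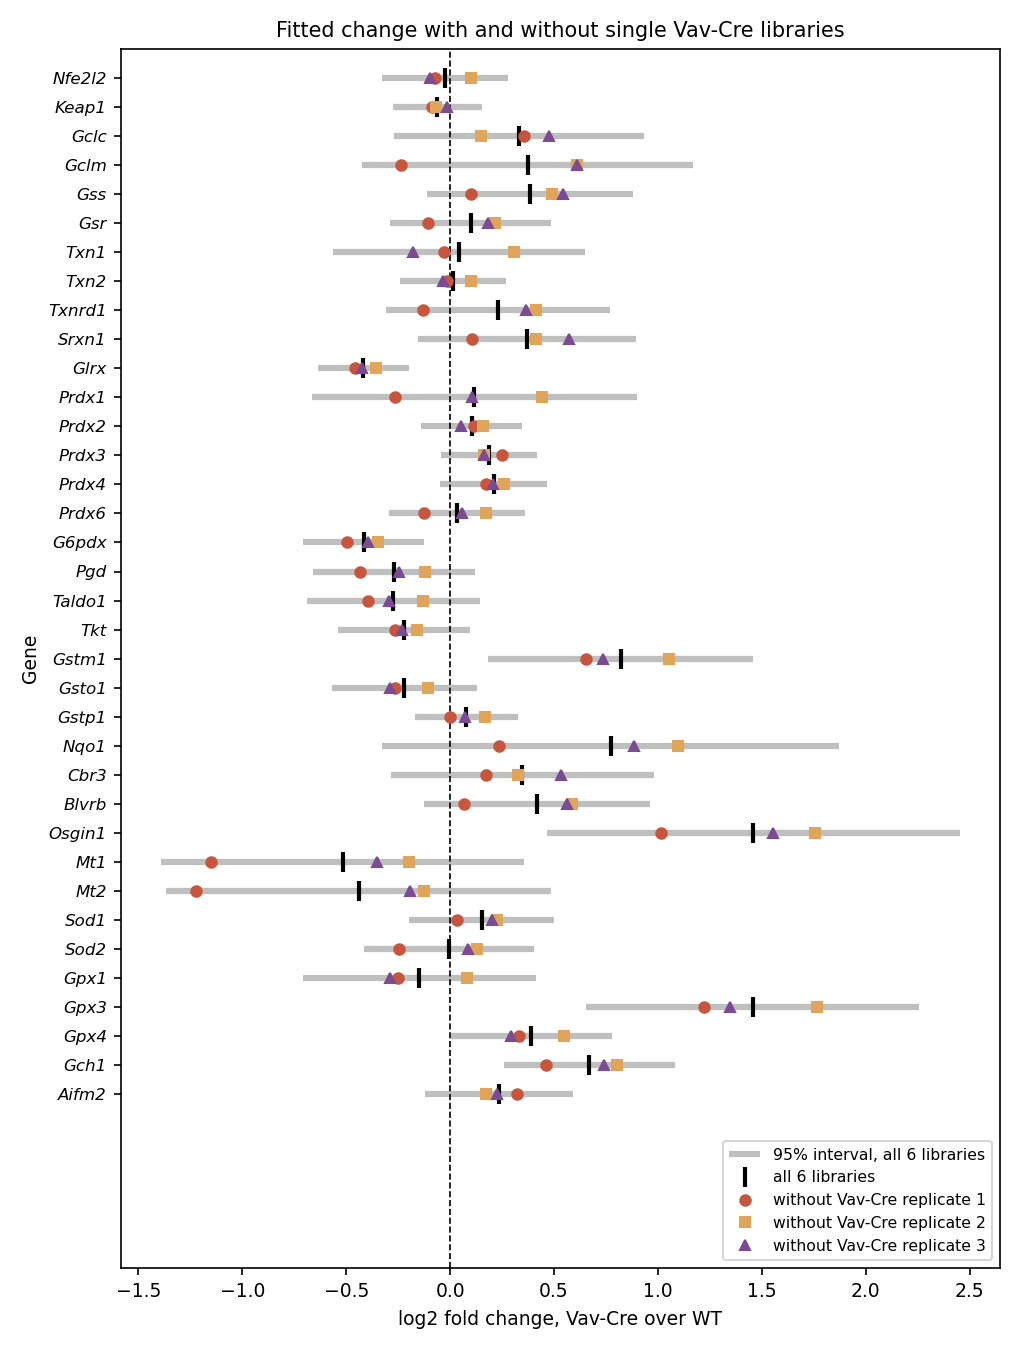
For each of the 36 tested antioxidant genes the black mark is the log2 fold change, Vav-Cre over WT, with all 6 libraries, the grey bar its 95% interval, and the coloured marks the values without Vav-Cre replicate 1, 2 or 3. Without Vav-Cre replicate 1 Gclm lies at -0.23, Prdx1 at -0.26 and Mt2 at -1.22, while Glrx keeps nearly the same value throughout with this scaling.

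Further genes of the same pathways came from lists of 101 symbols, of which 100 are in the table and 79 were tested. They gave 1 call higher and 1 lower, where 1.74% of all genes were called higher and 1.51% lower. Among 23 other tested genes of the NRF2 axis 0 were called by edgeR, 19 were positive and 4 negative (49.9% of all genes were positive), with a median log2 fold change of 0.20. An unadjusted p under 0.05 was reached by 6 of the 23, all higher, where 9.7% of all genes lay. DESeq2 called 2 of the 23 higher, against 3.57% of all genes, and these were Akr1b8 and Mafg, named after their values were seen. With TMM, Vav-Cre replicate 1 was the highest library for 17 of these 23 and the lowest for 0. By library totals alone it was the highest for 7 and Vav-Cre replicate 2 for 15. Hmox1, heme oxygenase 1, measured 904, 288 and 357 CPM in Vav-Cre against 458, 230 and 322 CPM in WT libraries. Slc7a11, the cystine importer, measured 46.4, 13.2 and 16.3 CPM in Vav-Cre against 14.9, 8.42 and 13.4 CPM in WT libraries. For both genes Vav-Cre replicate 1 was far above the rest. Hmox1 had a log2 fold change of 0.62 ± 0.42 (edgeR adjusted p = 0.472), and it was -0.06 without Vav-Cre replicate 1. That of Slc7a11 was 1.03 ± 0.45 (edgeR adjusted p = 0.264), and 0.27 without that library. Both passed by library totals alone, Hmox1 at 0.72 (edgeR adjusted p = 0.0391) and Slc7a11 at 1.14 (edgeR adjusted p = 0.0188). Bach1, a repressor at AREs, had a log2 fold change of -0.05 ± 0.21 (edgeR adjusted p = 0.923).

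The gene called higher was Mgst2, a microsomal glutathione transferase, among 20 tested genes of a further glutathione list. Of these 20, 3 had an unadjusted p under 0.05, all higher, where 9.7% of all genes lay. DESeq2 called 2 higher, against 3.57% of all genes. These were Mgst2 and Chac1, the second named after its values were seen. Mgst2 rose to 9.46, 11.2 and 9.16 CPM in Vav-Cre replicates 1 to 3, against 4.54, 4.64 and 5.33 CPM in WT replicates 1 to 3, with narrow spreads and no overlap. Mgst2 had a log2 fold change of 1.04 ± 0.17 (edgeR adjusted p = 0.0197), and the adjusted p was 0.0647 without Vav-Cre replicate 1, 0.0870 without WT replicate 1 and 0.0695 without WT replicate 2. Mgst1, its relative, measured 755, 586 and 836 CPM in Vav-Cre against 949, 839 and 631 CPM in WT libraries and overlapped between the groups.

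The gene called lower was Txnip, which binds and inhibits thioredoxin and also limits glucose uptake, among 17 tested genes of a further thioredoxin list. Of these 17, 3 had an unadjusted p under 0.05, 2 of them higher, against 18.9% of all genes in either direction. DESeq2 called Txnip alone, on the lower side, where 3.29% of all genes were called. Txnip fell to 318, 497 and 701 CPM in Vav-Cre replicates 1 to 3, against 1768, 1615 and 1218 CPM in WT replicates 1 to 3. The groups were far apart, with a log2 fold change of -1.60 ± 0.29 (edgeR adjusted p = 0.0261). The adjusted p of Txnip by edgeR was 0.0793 without Vav-Cre replicate 1, 0.114 without WT replicate 1, 0.0849 without WT replicate 2 and 0.0524 without WT replicate 3. Of 19 other tested genes of NADPH supply and peroxide handling 0 were called by edgeR, 7 were positive and 12 negative, with a median log2 fold change of -0.08. An unadjusted p under 0.05 was reached by 4 of the 19, against 18.9% of all genes. DESeq2 called 1 lower, Me2, named after its values were seen, against 3.29% of all genes. Catalase (Cat), the peroxidase that PEX5 brings into peroxisomes, measured 193, 134 and 170 CPM in Vav-Cre against 231, 164 and 195 CPM in WT libraries, with overlap. Prdx5, a peroxiredoxin found in peroxisomes among other places, measured 400, 304 and 392 CPM in Vav-Cre against 396, 500 and 428 CPM in WT libraries. Cat had a log2 fold change of -0.25 (edgeR adjusted p = 0.481) and Prdx5 one of -0.27 (edgeR adjusted p = 0.398).

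Signs of handling were compared between libraries as well. The 11 early response genes of a handling list summed to 478, 500 and 299 unscaled CPM in Vav-Cre replicates 1 to 3, against 449, 338 and 348 CPM in WT replicates 1 to 3. Of them Atf3 was called higher, at 52.3, 30.6 and 29.5 CPM in Vav-Cre against 13.8, 12.5 and 16.9 CPM in WT libraries. In unscaled CPM the summed level in Vav-Cre replicate 1 lay near that of Vav-Cre replicate 2 and WT replicate 1. The levels of Atf3 are TMM-scaled, and Vav-Cre replicate 1 was the highest of the 6 libraries. The sums are not set beside the TMM-scaled antioxidant levels, since the scales differ. The part of handling in the levels of Vav-Cre replicate 1 was not tested.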

How the data were processed

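RNA of sorted alveolar macrophages was sequenced with a stranded SMART-Seq kit, per the labels' protocols. The values used are the whole-number counts that the authors deposited for 25664 genes in 6 libraries. The authors used STAR, featureCounts, R 4.3.2 and DESeq2 1.40.1, per the submitters' processing notes. Neither its strand setting nor its annotation is stated there. Counts are of reads without molecular identifiers, so their number bounds counting error only.

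Libraries were grouped by genotype label, and the labels do not say whether each is a separate mouse, so p-values reflect the spread of these samples alone and that spread may be technical. No pair of libraries held the same counts. Genes were filtered with filterByExpr (minimum count 10, minimum total 15) and tested with edgeR 4.0.16 in R 4.3.3 (TMM factors, glmQLFit and glmQLFTest, Benjamini-Hochberg over 11011 genes). SEs were computed from each gene's F value. Log2 CPM used a prior count of 2. Alternatives were other scalings, other filters, DESeq2 1.42.0, a replicate block and leaving out each library. The steps were tested on simulated data. Coordinates and the share of each gene's 100-base words found in other genes come from GENCODE mouse release M21 on GRCm38, and promoters from RefSeq.

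The genes and lists were chosen with earlier results of these data known. By rule, full values are given for genes called, for genes without overlap and for a fixed set of pathway genes. Gss, Txn1, Txn2, Pgd, Me1, Gstm1, Gsta3, Gsta4, Blvrb, Gpx1, Prdx2 and Atf3 were given in more detail after their values were seen.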

Additional observations from a re-analysis of the deposited data

How the results depend on the processing

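The count of all genes called, 358, was 755 with DESeq2, 83 with the replicate block and 76 to 523 when single libraries were left out. It was 421 with library totals alone and 488 with no filter on low counts. The count of antioxidant genes called higher, 0, was 3 of 36 with library totals alone (2.62% of all genes), 2 of 39 with no filter (1.82% of all genes), 4 of 36 with DESeq2 and 0 to 3 when single libraries were left out. The 3 without Vav-Cre replicate 2 were of 37 tested, beside 2.77% of all genes. The count called lower, 0, was 1 with DESeq2 and 0 to 1 when single libraries were left out, Mt2 without Vav-Cre replicate 1, beside 0.462% of all genes. The count without overlap between the groups, 8, was 7 by library totals alone, an alternative chosen after seeing the data. Which genes these are is given in the results, except Gpx3 and Gch1 with no filter. The median log2 fold change of the 36 genes was 0.11, and across the other scalings, filters and tests it lay between 0.09 with the replicate block and 0.26 with library totals alone. The last setting moved the median of all genes to 0.17. Leaving out single libraries gave -0.02 to 0.17.

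Without single libraries the log2 fold change ranged from -0.23 to 0.61 for Gclm, -0.13 to 0.42 for Txnrd1, -0.26 to 0.44 for Prdx1, -0.11 to 0.22 for Gsr, -0.18 to 0.31 for Txn1, -0.035 to 0.10 for Txn2, -0.13 to 0.17 for Prdx6, -0.25 to 0.13 for Sod2, -0.29 to 0.082 for Gpx1 and -0.10 to 0.10 for Nfe2l2. Sod2 was 0.0022 with DESeq2-type size factors, 0.14 with library totals alone, 0.012 with upper-quartile factors and 0.0025 with DESeq2. Library totals alone gave 0.12 for Nfe2l2 and 0.11 for Keap1. The cause was not tested. Of the values of single genes under the alternatives 27 turned sign, 14 passed the threshold that the reported fit missed and 425 kept both.

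Same-numbered libraries of the 2 groups deviated from their group means with correlations from -0.41 to -0.06, so the numbers were not taken to pair samples. With the replicate block 83 genes were called, 0 of them antioxidant genes, and the log2 fold change turned to -0.011 for Txn1 and to -2.27e-05 for Prdx1. By edgeR an unadjusted p under 0.05 was then reached by 3 of the 36 on the higher and 2 on the lower side. Of all 11011 genes 1501 reached it in either direction, so the count of antioxidant genes was near the background. Depth limits Me1, Gsta3, Gsta4, Nqo1 and Osgin1 the most, since 3 counts are worth 0.155 to 0.225 unscaled CPM.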
